A study of Mus musculus with 4 samples.

Results

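The genes described here are the numbered G protein-coupled receptors, that is, genes whose symbol is Gpr followed by a number, with at most 1 further letter. Of 59 such genes named on the array, 6 were left out because they have known roles in lymphocyte traffic or signalling (Gpr15, Gpr18, Gpr65, Gpr83, Gpr132 and Gpr183), which left 53 of 18193 genes. The rule used the names of the genes and no measured value. The RNA came from helper (CD4) T cells taken from the lamina propria of the mouse large bowel, the tissue layer beneath the epithelium. All mice were of mixed 129/B6 background and carried green fluorescent protein (GFP) knocked into 1 copy of Gpr15, so both groups came from heterozygous animals and differed in whether the cell showed GFP. Cells freed by collagenase were sorted into GFP-negative and GFP-positive fractions, with 2 arrays each, numbered replicate 1 and replicate 2. The labels give no age, sex or number of mice. P-values measure only the spread between the 2 arrays of a group, that of the gene itself pooled with that of all tested genes. Those 2 arrays differed widely in Xist, a transcript of female cells, so they did not hold the same RNA.

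G protein-coupled receptors are membrane proteins that bind a ligand outside the cell and switch on heterotrimeric G proteins inside it, which then raise or lower second messengers such as cyclic AMP. A number in place of a name usually marks a receptor that was cloned from its sequence before any ligand was known. Some have since been paired with lipids, protons, metabolites or peptides, and some turned out to sit in the Golgi or the lysosome. In T cells, receptors that couple to inhibitory G proteins mostly guide migration, and those that raise cyclic AMP mostly restrain activation.

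The first question was which of the 53 genes gave a signal above background at all. Detection calls were not used here, so 2 marks were set. The lower mark was the filter of the fit, a level of 27.3, which is the 40th percentile of all probe sets. The higher mark was 53.8, the 95th percentile of 69 olfactory and vomeronasal receptor genes, sensory receptors that T cells are not known to use. A level here is the mean of log2(signal + 16) over the 4 arrays, turned back to signal. By the lower mark 27 members were measurable and 26 were near background, against 67.3% of all genes and 34.8% of the sensory receptor genes above it. By the higher mark 9 members, or 17.0%, stood above the sensory receptors, against 46.3% of all genes. Array by array, 24 and 21 members lay above 27.3 in GFP-negative replicates 1 and 2, and 33 and 30 in GFP-positive replicates 1 and 2. The sensory receptor genes showed the same step, with 22 and 17 above it in GFP-negative cells and 31 in each GFP-positive replicate. A member that passed on its mean could do so through the brighter group alone: 14 members were above 27.3 on all 4 arrays and 15 on none. Signals of different probe sets depend on how well each probe binds, so the order of the members is an order of signals and not of transcript amounts.

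**Figure D1:**
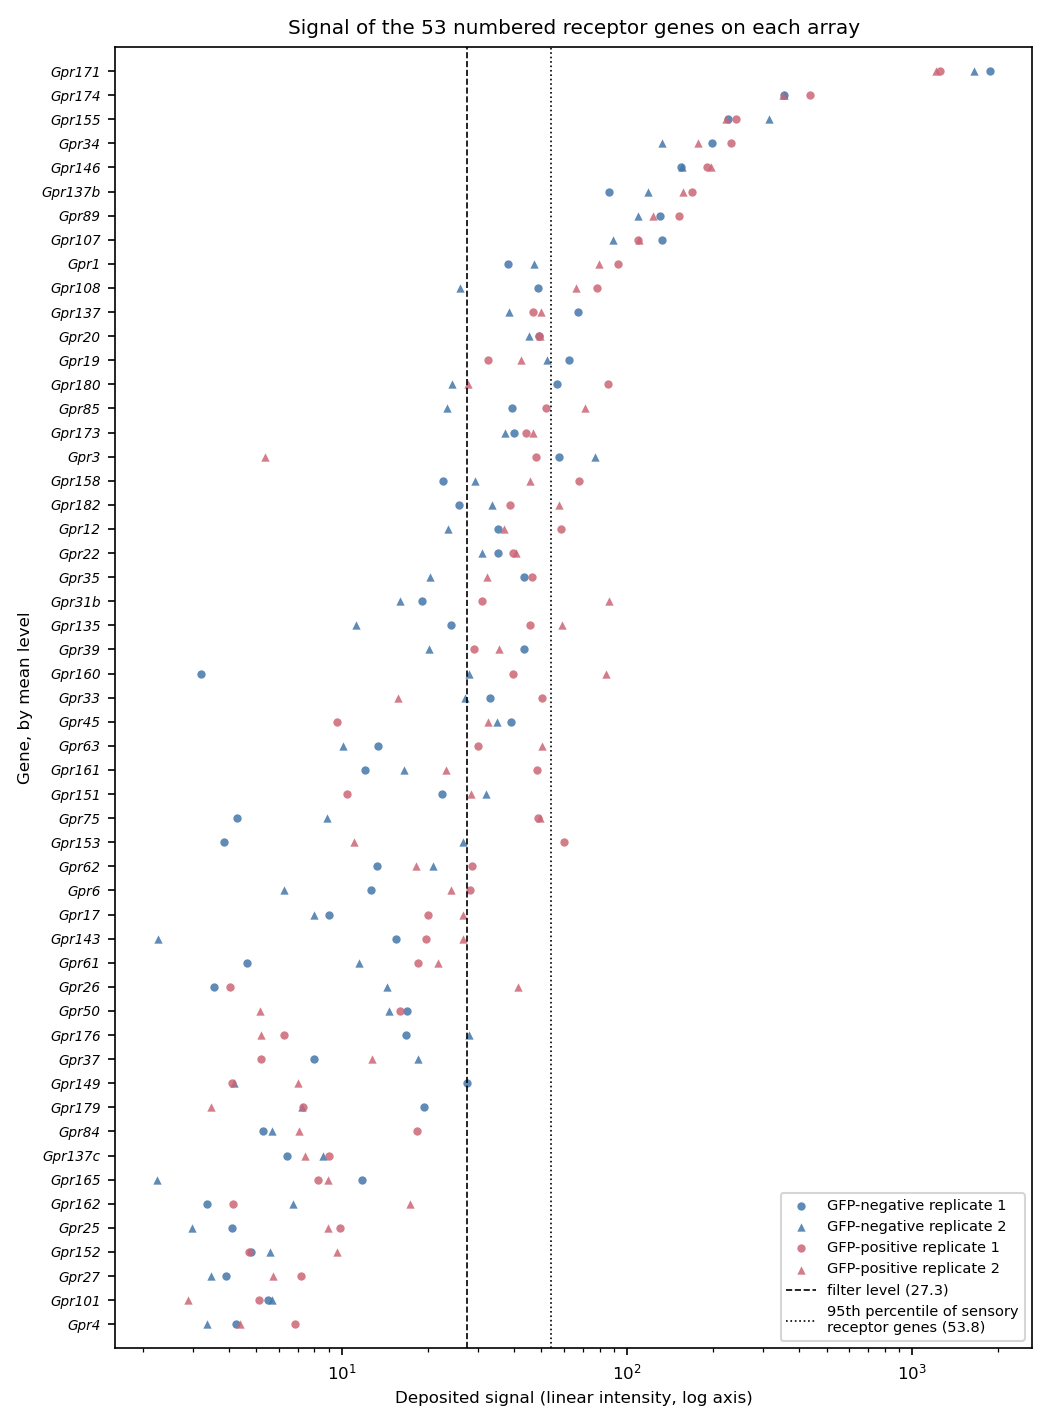
Deposited signal of each of the 53 numbered receptor genes on each of the 4 arrays (log axis), sorted by mean level, with blue for GFP-negative, red for GFP-positive, circles for replicate 1 and triangles for replicate 2. The dashed line is the filter level of 27.3 and the dotted line the 95th percentile of sensory receptor genes, 53.8; 9 genes have a mean level to the right of the dotted line, and Gpr171 stands apart from the rest.

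The 9 members above both marks were Gpr171, Gpr174, Gpr155, Gpr34, Gpr146, Gpr137b, Gpr89, Gpr107 and Gpr1. They held 4 proteins of the Golgi or lysosome (Gpr155, Gpr137b, Gpr89 and Gpr107), both members that are receptors for lysophosphatidylserine (Gpr174 and Gpr34), and receptors for peptides or chemerin (Gpr171 and Gpr1). Gpr108 lay closest below the higher mark, at a level of 51.7. At the filter, Gpr33 at 29.9 lay just inside and Gpr45 at 27.2 just outside.

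RefSeq promoter windows (build GRCm38.p6) were found for 39 of the 53 members, and 3 are shown because they are those of members clearly above background that differ in kind. Each is the 250 bases before the gene's start, 5′ to 3′ on the gene's strand, with every CpG dinucleotide in capitals. The windows are chrX:107284096-107284345 on the plus strand for Gpr174, chr2:73386481-73386730 on the minus strand for Gpr155 and chr2:31152066-31152315 on the plus strand for Gpr107.
Gpr174: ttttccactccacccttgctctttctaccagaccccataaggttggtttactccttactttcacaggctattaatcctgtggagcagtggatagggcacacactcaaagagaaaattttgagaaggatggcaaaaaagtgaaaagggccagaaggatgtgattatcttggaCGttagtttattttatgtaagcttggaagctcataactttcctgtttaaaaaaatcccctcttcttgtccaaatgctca
Gpr155: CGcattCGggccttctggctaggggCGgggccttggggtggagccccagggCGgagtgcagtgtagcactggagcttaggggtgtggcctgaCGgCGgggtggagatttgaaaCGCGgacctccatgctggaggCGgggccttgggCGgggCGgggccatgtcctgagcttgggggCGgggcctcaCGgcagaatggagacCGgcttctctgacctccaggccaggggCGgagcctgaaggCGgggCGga
Gpr107: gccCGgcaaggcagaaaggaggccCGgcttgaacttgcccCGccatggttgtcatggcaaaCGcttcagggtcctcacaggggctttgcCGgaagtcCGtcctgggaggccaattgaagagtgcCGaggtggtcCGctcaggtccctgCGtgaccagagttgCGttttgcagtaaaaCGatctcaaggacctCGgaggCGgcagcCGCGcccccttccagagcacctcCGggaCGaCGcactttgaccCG
The window of Gpr174, a receptor gene of lymphocytes, held 1 CpG, and those of Gpr155 and Gpr107, whose products belong to inner membranes of most cells, held 17 and 19. Set against the number that base composition alone would give, the observed-to-expected CpG ratio was 0.098 for Gpr174, 0.60 for Gpr155 and 0.76 for Gpr107. The ratio, averaged over a gene's starts, was above 0.6 for 14 of 39 members (35.9%), for 52.3% of 14367 genes and for 0 of 58 sensory receptor genes. By level it was above 0.6 for 3 of 6 members over the higher mark, 7 of 16 between the marks and 4 of 17 near background, where all genes of those levels gave 70.6%, 43.6% and 30.5%. For motifs a gene was counted where the window of any of its starts held the letters. The motif of ETS factors, searched as CCGGAA on both strands, was in 3 of 39 members (7.69%) and in 19.6% of all genes. That of RUNX factors, searched as TGTGGT on both strands, was in 10 (25.6%) and in 13.7%. The cyclic AMP response element, searched as TGACGTCA, which reads the same on both strands, was in 1 (2.56%) and in 2.51%. Of the sensory receptor genes, 1.72% held the ETS motif and 20.7% that of RUNX. By level the RUNX motif was in 1 of 6 members over the higher mark, 4 of 16 between the marks and 5 of 17 near background. All genes of those levels gave 12.8%, 14.0% and 14.9%. No motif here contains another, and a match is no more than a run of letters.

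The comparison of GFP-positive with GFP-negative cells found no member that passed the test. In limma's fit over 12252 genes, 0 of the 27 tested members had a Benjamini-Hochberg adjusted p under 0.05, where 0.0326% of all tested genes did, and the lowest adjusted p of a member was 0.239. At an unadjusted p under 0.05, 8 members were higher in GFP-positive cells and 0 lower, against 10.2% and 4.37% of all tested genes. The groups did not overlap for 16 tested members, 13 higher and 3 lower, against 28.7% and 18.7% of all tested genes. A difference of at least 2-fold with groups apart was seen for 3 members higher and 1 lower, against 3.4% and 1.31%. The 3 higher ones, Gpr31b, Gpr135 and Gpr160, are also among the 8 above. They passed the filter through their GFP-positive arrays, so their place in both counts rests on the difference itself. All differences below are GFP-positive minus GFP-negative on the log2(signal + 16) scale, which understates those of dim genes.

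The members' shift was set beside that of all genes of like signal. Over the 27 tested members the median difference was 0.24, against 0.07 for all tested genes. Of these members 21 (77.8%) were positive, against 57.7% of all tested genes and 79.7% of the sensory receptor genes. With quantile or cyclic loess normalization 16 members were positive, and with median scaling 14. Median scaling moved the median of all tested genes by -0.23. Between the marks the median was 0.27 for 18 members and 0.27 for all 3837 tested genes, and 77.8% and 72.2% were positive. The 69 sensory receptor genes had a median of 0.27. Above the higher mark the median was 0.18 for 9 members and 0.01 for all 8415 genes. With quantile normalization those were 0.20 and 0.0006. For all genes divided by level into 10 classes of equal size, the median difference ran from 0.08 in the dimmest through 0.27 in the fifth to -0.08 in the brightest. In classes 2, 3 and 4, counted from the dimmest, the members' medians, over 8, 6 and 6 genes, were 0.54, 0.69 and 0.55, above the 0.17, 0.23 and 0.25 of all genes there. In the fifth, with 10 members, they were 0.27 and 0.27. Within their own class, 32 of 53 members lay above the median. Between the marks, 6 of 18 members were higher at an unadjusted p under 0.05 and 10 of 18 had higher groups that did not overlap, where all genes there gave 15.1% and 37.8%. The median signal of dim probe sets was 8.86 and 9.89 on the GFP-negative arrays and 11.6 and 11.2 on the GFP-positive arrays. The part of this array-wide step in each dim member's difference was not tested.

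**Figure D2:**
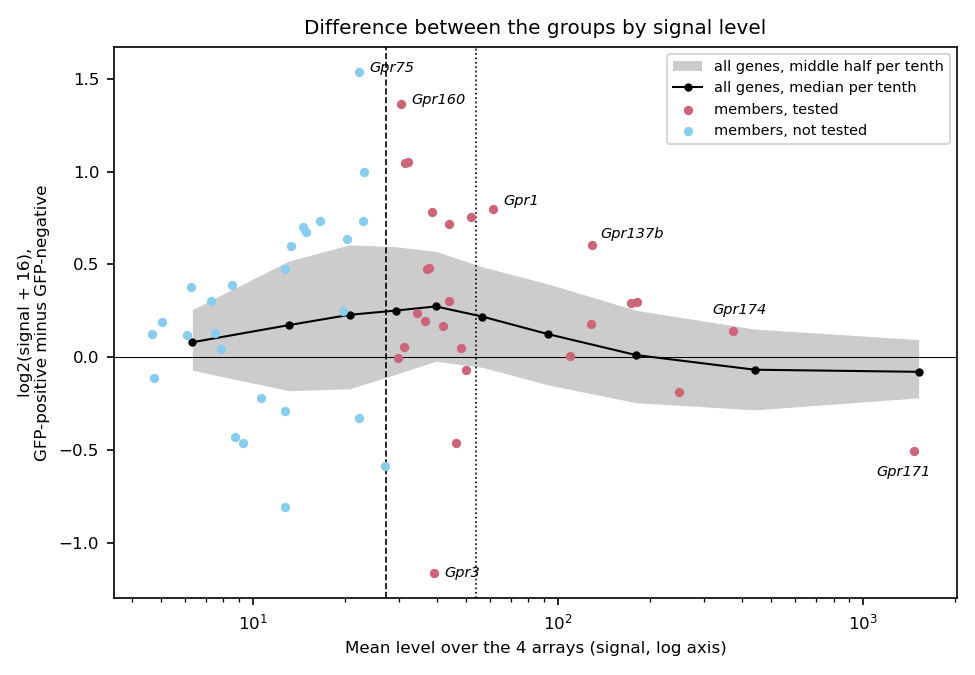
Difference on the log2(signal + 16) scale, GFP-positive minus GFP-negative, against mean level over the 4 arrays (log axis), for the 53 numbered receptor genes (red tested, light blue not tested) and for all genes as the median (black) and interquartile range (grey) of each of 10 level classes. Dashed and dotted lines are at 27.3 and 53.8; most dim members sit above 0, as does the black line, which falls to -0.08 in the brightest class, where Gpr171 lies at -0.51.

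**Figure D3:**
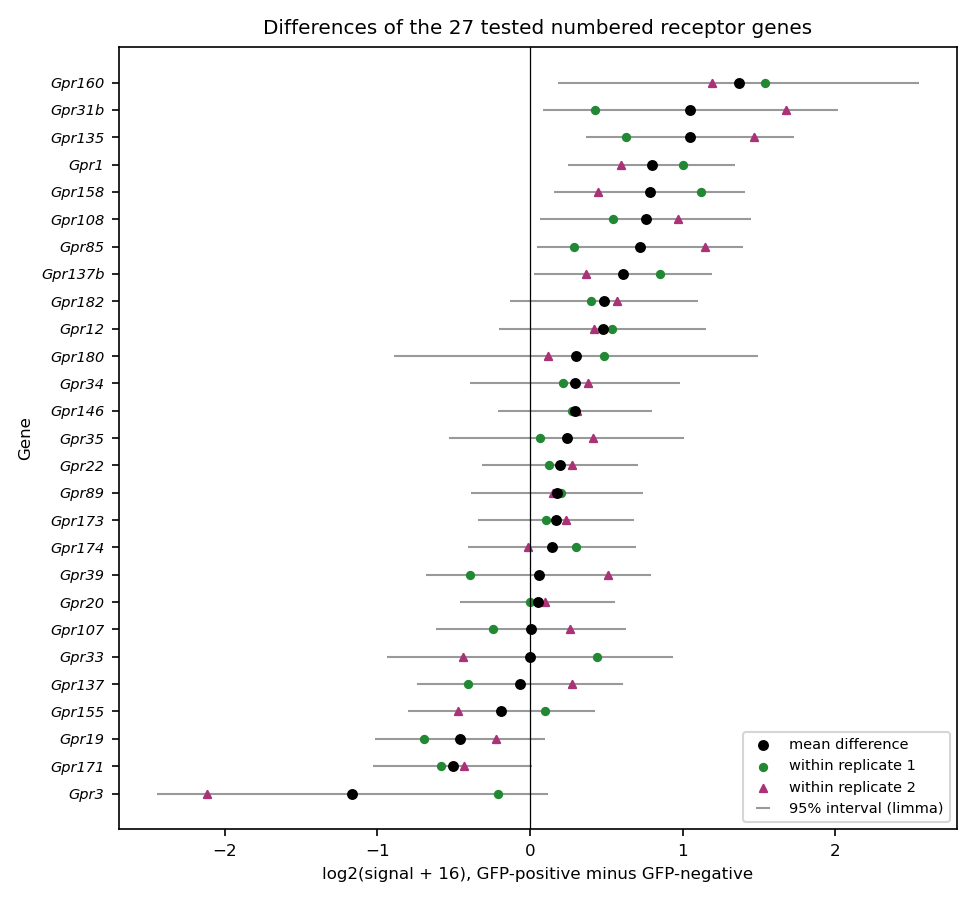
Difference of each of the 27 tested numbered receptor genes with its 95% interval from limma (grey), the mean difference (black) and the differences within replicate 1 (green circles) and replicate 2 (purple triangles). Intervals of 8 genes lie wholly above 0, from Gpr160 at 1.37 to Gpr137b at 0.61, and that of Gpr171 reaches from -1.03 to 0.02.

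Among receptors known from lymphocytes, Gpr171 had the brightest signal of the 53. It encodes a receptor for the neuropeptide BigLEN that has been described to dampen T cell receptor signalling. It gave 1877 and 1644 on the GFP-negative arrays and 1246 and 1215 on the GFP-positive arrays, replicates 1 and 2 in turn. Both GFP-positive values lay below both GFP-negative ones, with means of 1760 ± 165 and 1231 ± 21.8 (SD, n = 2 each). The difference was -0.51 (95% interval -1.03 to 0.02), with -0.58 within replicate 1, -0.43 within replicate 2 and an adjusted p of 0.351 in limma's fit. It was negative in all 14 alternative fits, from -0.74 under median scaling to -0.41 without GFP-negative replicate 1. For most of these the sign was fixed in advance. Fits that change only the filter, the variance settings or the block, or average its single probe set, return the same difference. With groups apart, leaving out 1 array or changing the number added before the log cannot turn it positive.

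The lysophosphatidylserine receptors Gpr174 and Gpr34 did not separate the groups. Gpr174, which restrains T cell growth and regulatory T cells, gave 354 and 356 in GFP-negative cells and 438 and 353 in GFP-positive cells. GFP-positive replicate 1 stood above the other 3 arrays, and the difference was 0.14 (-0.41 to 0.69). Its other probe set differed by -0.07. Gpr34, known from mast cells, microglia and innate lymphoid cells, gave 198 and 132, then 232 and 177, with a difference of 0.30 (-0.39 to 0.98). The replicate 1 value was the higher one in both groups, and the groups overlapped, with differences of 0.21 and 0.38 within the replicates. Without GFP-negative replicate 2 the difference was 0.032, without GFP-negative replicate 1 it was 0.56, and without GFP-positive replicates 1 and 2 in turn it was 0.12 and 0.48. Their intervals hold 0 and reach up to 0.69 and 0.98, so equal expression is not shown.

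Gpr146, an orphan receptor known for control of blood cholesterol through the liver, gave closely matched replicates. Its signals were 155 and 156 in GFP-negative and 191 and 197 in GFP-positive cells, with no overlap. The difference was 0.29 (-0.21 to 0.80), and the other 3 probe sets gave 0.50, -0.13 and 0.39, so they did not all share its direction.

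Gpr1, a receptor for the chemoattractant chemerin, lay above the higher mark by its mean, through its GFP-positive arrays alone. It gave 38.2 and 47.2 on the GFP-negative arrays and 92.7 and 79.3 on the GFP-positive arrays. Both GFP-positive values were above both GFP-negative ones, by 0.80 (0.25 to 1.34) on the log2 scale, with 1.0 within replicate 1 and 0.59 within replicate 2. Its adjusted p in limma's fit was 0.249, and the difference ran from 0.49 to 1.0 over the alternatives.

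Other receptors of immune or gut cells were dim. Gpr35, a receptor of gut epithelium and immune cells for tryptophan metabolites, gave 43.5 and 20.3, then 46.2 and 32.3, and the groups overlapped. Gpr25, a relative of Gpr15 within the peptide and chemokine receptor family, gave 4.11 and 2.98, then 9.83 and 8.92. Those 4 values are all below the filter level, although the groups do not overlap. Gpr84, the medium-chain fatty acid receptor of myeloid cells, gave 5.28 and 5.68, then 18.3 and 7.06. Gpr31b, a receptor for fatty acid and other metabolites, gave 19.0 and 16, then 31.0 and 86.1. Its difference of 1.05 (0.08 to 2.02) had an adjusted p of 0.324 in limma's fit, and it was 0.49 without GFP-positive replicate 2 and 1.61 without GFP-positive replicate 1. Gpr39, the zinc receptor, differed by 0.06 (-0.68 to 0.79). The dim Gpr17, a relative of purine and leukotriene receptors, differed by 0.68 with no array above the filter. Gpr55 and Gpr141 had no probe set of their own among those used and are not analysed here.

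GFP-positive replicate 2 was the highest array in macrophage and dendritic cell markers. Summed over all 7 of 7 measured markers, these gave 125 and 199 on the GFP-negative arrays and 180 and 565 on the GFP-positive arrays. Csf1r, the receptor that defines macrophages, gave 7.73 and 10.7, then 35.5 and 164. All 6 epithelial markers were measured too, and summed to 353 and 409, then 1472 and 423, with the highest sum on GFP-positive replicate 1. Epcam, an adhesion protein that defines epithelium, was higher on both GFP-positive arrays, at 72.3 and 42.5, then 246 and 175, a difference of 1.64 (0.89 to 2.38) with an adjusted p of 0.167 in limma's fit. The keratin gene Krt18 was higher on both too, at 1.31 (0.16 to 2.46). Of 5 tested epithelial markers 4 had a positive and 1 a negative difference, and groups did not overlap for 2. B and plasma cell markers (3 of 4 measured) summed to 3928 and 4553, then 6357 and 4201, nearly all of it Jchain. The sums lay between 63.7 and 91.5 for CD8 T and NK cells, 118 and 151 for mast cells and granulocytes, and 319 and 853 for stroma and endothelium. The CD4 T cell markers (3 of 5 measured) summed to 8109 and 7665, then 7378 and 6438, lower on both GFP-positive arrays. Their differences were -0.16 (-0.67 to 0.36) for Cd3e, -0.35 (-1.08 to 0.38) for Cd3g and -0.01 (-0.54 to 0.51) for Cd4. In such sorted samples fewer cells of a type and less RNA per cell cannot be told apart, and the part of these other cells in the members' differences was not tested.

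Receptors that raise cyclic AMP without a ligand are Gpr3, Gpr6 and Gpr12. Gpr3 had the largest negative difference of any tested member. It gave 57.7 and 76.9 in GFP-negative cells and 47.7 and 5.38 in GFP-positive cells. The groups did not overlap, and 1 array made most of the gap, with -0.21 within replicate 1 and -2.12 within replicate 2. The difference was -1.16 (-2.44 to 0.11), its adjusted p in limma's fit was 0.374, and it was -0.38 without GFP-positive replicate 2 and -1.95 without GFP-positive replicate 1. Its relatives went the other way, with 0.48 (-0.20 to 1.15) for Gpr12 and 0.73 for Gpr6, which was near background. The proton sensor Gpr4 was near background on all 4 arrays, between 3.37 and 6.82.

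Numbered proteins of the Golgi, lysosome or melanosome made up 9 members, of which 7 were tested and 4 stood above the higher mark. Their median difference was 0.18, with 7 positive and 2 negative, where 59.9% of all genes without the filter were positive. Gpr155, a lysosomal cholesterol sensor, gave 225 and 315, then 241 and 222, a difference of -0.19 (-0.80 to 0.42), which is 0.10 within replicate 1 and -0.47 within replicate 2. Gpr89, the Golgi pH regulator, gave 130 and 109, then 152 and 123, and Gpr107, of Golgi and endosome transport, gave 133 and 89.0, then 109 and 110. Both pairs of groups overlapped, with differences of 0.18 (-0.39 to 0.74) and 0.01 (-0.62 to 0.63). Within the replicates Gpr89 differed by 0.20 and 0.15 and Gpr107 by -0.25 and 0.26.

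Gpr137b and Gpr108 were the tested members of that kind with groups apart. Gpr137b, a lysosomal membrane protein that takes part in mTOR regulation, gave 86.6 and 118, then 169 and 156, with a difference of 0.61 (0.03 to 1.19) and an adjusted p of 0.335 in limma's fit. That value comes from 1 of its 4 probe sets, whose suffix (x_at) marks probes that may bind other transcripts. The other 3 differed by -0.09, 0.21 and 0.03, and the mean of all 4 by 0.19. Another 4 probe sets name both Gpr137b and its pseudogene Gpr137b-ps, and these differed by 0.83, 0.21, 0.32 and -0.27, so the gene and the pseudogene cannot be told apart there. Gpr108, a Golgi protein used by adeno-associated virus to enter cells, gave 48.5 and 26.0, then 78.1 and 66.3. Its difference was 0.76 (0.07 to 1.45), with 0.55 and 0.97 within the replicates and an adjusted p of 0.322 in limma's fit, and it was 0.45 without GFP-negative replicate 2. Gpr137 differed by -0.07, Gpr180 by 0.30, and Gpr143, the melanosome receptor, and Gpr137c were near background.

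Gpr85 and Gpr158, known mainly from the brain, were dim and higher on both GFP-positive arrays. Gpr85, the most conserved receptor of its small brain family, gave 39.5 and 23.4, then 51.9 and 71.2, a difference of 0.72 (0.04 to 1.39), which was 0.47 without GFP-negative replicate 2. Of its other 3 probe sets 2 differed by 0.75 and 0.13 and 1 by -0.34. Gpr173 and Gpr27 of the same family differed by 0.17 (-0.34 to 0.68) and 0.19, the latter near background. Gpr158, a class C receptor of neurons, gave 22.6 and 29.2, then 67.9 and 45.4, a difference of 0.78 (0.16 to 1.41), and its other probe set differed by 0.06. The adjusted p in limma's fit was 0.326 for Gpr85 and 0.277 for Gpr158. Markers of neurons and glia (3 of 4 measured) summed to 56.9 and 51.9, then 92.4 and 89.4, higher on both GFP-positive arrays. The tested one, Elavl4, gave 37.7 and 30.1, then 69.5 and 58.7, a difference of 0.68 (0.14 to 1.23). Tubb3 lay between 3.11 and 20.3 on the 4 arrays, and S100b between 10.4 and 19.2. The part of such cells in these differences was not tested. Gpr22 of heart and brain differed by 0.20 (-0.32 to 0.71) and Gpr19 by -0.46 (-1.02 to 0.10).

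Gpr160 and Gpr135, like Gpr31b, passed the filter on their mean through the GFP-positive arrays, so that their place among the tested members rests on the difference itself. Gpr160, an orphan receptor, gave 3.2 and 27.9, then 39.8 and 84.3, a difference of 1.37 (0.19 to 2.55) with an adjusted p of 0.305 in limma's fit. The 2 values within a group differed widely, and leaving out 1 array moved the difference from 0.77, without GFP-negative replicate 1, to 1.96, without GFP-negative replicate 2. Gpr135, another orphan receptor, gave 24.0 and 11.2, then 45.7 and 59.2, a difference of 1.05 (0.37 to 1.73) with an adjusted p of 0.239 in limma's fit. Its other probe sets differed by -0.01 and 0.73. For all 3 genes both GFP-negative values lay at or below 27.9, so the low side of each comparison is close to background.

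Among the 26 members near background, 11 were higher on both GFP-positive arrays than on either GFP-negative array and 3 were lower, against 27.8% and 9.41% of the 5941 untested genes. Gpr75, named here after its values were seen, had the largest difference of all 53. It gave 4.29 and 8.83 on the GFP-negative arrays and 48.7 and 49.5 on the GFP-positive arrays, a difference of 1.54, or 1.67 and 1.40 within the replicates. It was not tested because its mean level of 22.2 was under the filter. Gpr63 differed by 1.0 and Gpr161, a receptor of the primary cilium, by 0.73, and their other probe sets by 0.09 and -0.20. Gpr176, of the brain's clock centre, differed by -0.81 and Gpr45 by -0.59. The other probe set of Gpr45 went the opposite way, at 0.94, so its direction is not settled. The others with groups apart were Gpr6, Gpr17, Gpr143, Gpr61, Gpr84, Gpr25, Gpr27 and Gpr4, all higher, and Gpr101, lower. Groups overlapped for Gpr151, Gpr153, Gpr62, Gpr26, Gpr50, Gpr37, Gpr149, Gpr179, Gpr137c, Gpr165, Gpr162 and Gpr152. The tested members not yet given are Gpr182 of endothelium at 0.48 (-0.13 to 1.10), Gpr20 at 0.05 (-0.46 to 0.56) and Gpr33 at 0.00 (-0.94 to 0.94).

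Probe sets of 1 gene often disagreed. Of the 27 tested members 11 had more than 1 probe set, and for 9 of these at least 1 other probe set had a difference of the opposite sign. Over all 53 members, 35 had a single probe set, so for them no such check exists. For Gpr50 the probe set depends on how the mean is taken: the other one, brighter by the mean of plain signals, differed by 0.79 and the one used here by -0.29.

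Downstream of the receptors stand the genes of G proteins, of the proteins that switch receptors off and of cyclic AMP. Over these 4 lists, 48 genes were tested, 0 passed an adjusted p under 0.05 in limma's fit, where 0.0326% of all tested genes did, 7 were higher at an unadjusted p under 0.05 and 2 lower. At that p 10.2% of all tested genes were higher and 4.37% lower, so these counts are near the background. Of the G protein alpha subunits, 2 of 11 tested were higher at that p and 0 lower. Gnaq, which links receptors to phospholipase C, gave 331 and 279 in GFP-negative and 719 and 598 in GFP-positive cells. Both GFP-positive values were above both GFP-negative ones, by 1.07 (0.51 to 1.64), with an adjusted p of 0.187, and all 7 of its probe sets had a positive difference. The subunits that lower cyclic AMP, Gnai2 and Gnai3, and the one that raises it, Gnas, differed by 0.04 (-0.56 to 0.64), -0.04 (-0.60 to 0.51) and 0.01 (-0.50 to 0.52). The dim Gnaz was the other higher one, at 0.68 (0.05 to 1.32), with a second probe set at -0.65. Its difference was 0.42 without GFP-positive replicate 2. Gnaz gave 21.5 and 18.3 in GFP-negative and 32.1 and 53.1 in GFP-positive cells. It passed the filter through the GFP-positive arrays alone, so its place among the tested genes rests on the difference itself.

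Of the beta and gamma subunits, 2 of 10 tested were higher at an unadjusted p under 0.05 and 0 lower. Gnb4 gave 1548 and 1078, then 1925 and 2841, a difference of 0.85 (0.10 to 1.60), and Gng4 gave 35.6 and 31.1, then 85.9 and 79.3, a difference of 1.0 (0.48 to 1.52). Other probe sets of both had positive differences, from 0.57 to 1.38 for Gnb4 and 0.24 and 0.38 for Gng4. Receptor kinases and arrestins, which switch receptors off, had 1 of 8 higher, the arrestin relative Arrdc3 at 0.56 (0.05 to 1.07), and 0 lower.

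In the cyclic AMP list 2 of 19 tested genes were higher at an unadjusted p under 0.05 and 2 lower, and the lower ones were both phosphodiesterases, enzymes that break cyclic AMP down. Pde3b gave 1818 and 1491 in GFP-negative and 282 and 543 in GFP-positive cells, which is a difference of -2.03 (-2.88 to -1.17) with an adjusted p of 0.151 in limma's fit. The groups were far apart, by -2.62 within replicate 1 and -1.43 within replicate 2. Pde7a gave 961 and 779, then 392 and 432, a difference of -1.05 (-1.60 to -0.49) with an adjusted p of 0.187, and all 7 of its probe sets had a negative difference. Other phosphodiesterase genes differed by 0.58 (0.04 to 1.12) for Pde8a, with a second, dim probe set at -0.75 and the mean of both at -0.08, by 0.28 (-0.24 to 0.79) for Pde4d and by -0.24 (-0.86 to 0.39) for Pde4b. Prkar1b, a regulatory subunit of protein kinase A, was the other higher gene at 1.33 (0.11 to 2.54), with 3 of its other 4 probe sets of opposite sign. It was 2.06 without GFP-negative replicate 1, 0.59 without GFP-negative replicate 2 and 0.21 with the mean of its probe sets. Gnaq, Pde3b and Pde7a passed in 2 of 14 alternative fits of limma. Their adjusted p was 0.0396, 0.0126 and 0.0387 at a pseudocount of 64 and 0.0251, 0.00946 and 0.0191 with a variance trend and robust settings. Those 2 fits called 175 and 240 of all tested genes, against 4 in the fit as reported, so passing there is not particular to these genes.

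**Figure D4:**
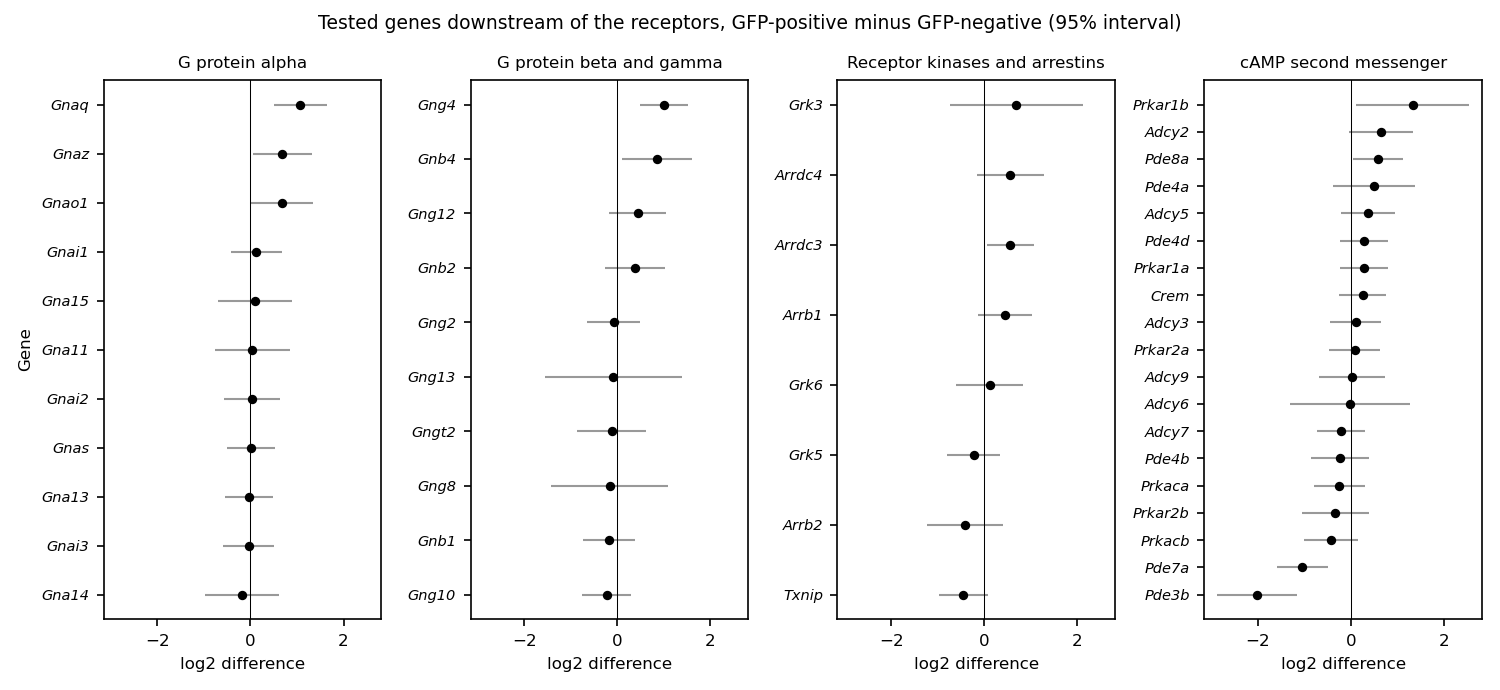
Differences with 95% intervals from limma, GFP-positive minus GFP-negative on the log2(signal + 16) scale, of the 48 tested genes of 4 lists downstream of the receptors. Gnaq at 1.07 and Gng4 at 1.0 have intervals above 0, and Pde3b at -2.03 and Pde7a at -1.05 have intervals below 0.

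All arrays had the same trimmed mean signal, which the scaling of deposited values can fix, but not the same median signal. The medians were 37.0 and 36.0 for GFP-negative and 46.0 and 45.2 for GFP-positive cells. The replicate numbers differed in the female-specific transcript Xist, at 4172 and 4313 on replicate 1 against 55.1 and 112 on replicate 2, and in the added control RNA dap, at 8.59 and 53.3 against 1581 and 1285. Each number held 1 array of each group, and the number of arrays limits the precision of every value.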

How the data were processed

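Per the labels, total RNA was taken with Trizol, labelled with biotin and hybridised to Affymetrix arrays. The authors deposited 1 linear intensity per probe set and array. The software that made them is not given in the sources used here. Genes were named by the platform annotation, from 34945 probe sets with 1 gene symbol, and each stands by its probe set of highest mean log2(signal + 16). Genes with a level over the 40th percentile of all probe sets except controls (12252 of 18193) were tested, two-sided, with limma 3.58.1 in R 4.3.3 (group as the only term, 2 residual and 3.74 prior degrees of freedom). P-values were adjusted by the Benjamini-Hochberg method over all of them, and intervals are 95% intervals. The fit was tested on simulated data. The rule for members reads gene names only, but it, the lists and the marks were chosen with earlier results of these data known. Named genes are members with an unadjusted p under 0.05, or 2-fold with groups apart, the 10 brightest and a fixed set of lymphocyte and gut receptors; others were given after their values were seen. Alternatives are in the closing section. Promoter windows came from RefSeq. All 53 members matched the RefSeq gene table.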

Additional observations from a re-analysis of the deposited data

How the results depend on the processing

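No member passed an adjusted p under 0.05 in limma's fit or in any of 14 alternative fits, where the lowest adjusted p of a member was 0.135. Members with an unadjusted p under 0.05 in limma's fit numbered 8 of 27, where 1783 of all 12252 tested genes had such a p. Without the filter they were 10 of 53, against 2069 of 18193 genes, and with the stricter filter 3 of 9. In the other alternatives with all 4 arrays they were 4 to 9 of 27, against 1463 to 2128 of 12252 genes. Over all genes 4 were called, against 0 with a pseudocount of 1, without the filter, with quantile or cyclic loess normalization and without any 1 array (0 to 0), 8 with the mean of probe sets, 50 with the stricter filter, 175 with a pseudocount of 64 and 240 with trend and robust settings. Where 0 genes were called, 1211 to 2128 had an unadjusted p under 0.05. With the replicate number as a block 0 genes were called. Each number holds 1 array of each group, so a block cannot change any difference. The members' median of 0.24 and the counts of 3 members 2-fold higher and 1 lower were therefore the same by design. Same-numbered arrays were alike in Xist and the dap control and their deviations correlated at 0.198, but the labels do not say what a number shares, and there are 2 pairs. Members 2-fold higher with groups apart numbered 3, against 4 with a pseudocount of 1 or no filter, 0 with a pseudocount of 64 or the stricter filter, 1 with quantile, cyclic loess or median scaling, and 1 to 3 without 1 array; those lower numbered 1, against 0 with a pseudocount of 64 or the stricter filter and 0 to 1 without 1 array. The members' median of 0.24 was 0.32 and 0.13 with pseudocounts of 1 and 64, 0.18 with the stricter filter, 0.12 with quantile and 0.14 with cyclic loess normalization, 0.0091 with median scaling, 0.19 with the mean of probe sets and 0.13 to 0.36 without 1 array. Members near background numbered 26, or 44 by the sensory receptor mark and 39 if all 4 arrays must be above the filter.

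Of 230 fits of named members under an alternative, 221 kept their direction and 9 changed sign, all of members with a difference of 0.24 or less either way. Many of the 221 could not have changed sign. Changing the filter, using trend and robust settings or adding the block leaves each difference as it is. So does the mean of probe sets for a member with a single probe set. Median scaling turned Gpr174 to -0.087, Gpr89 to -0.053 and Gpr107 to -0.22. Quantile and cyclic loess normalization turned Gpr107 to -0.082 and -0.060. With 1 array left out Gpr174 ran from -0.0084 (without GFP-positive replicate 1) to 0.29. Without GFP-negative replicate 2, Gpr155 was 0.041, Gpr107 -0.24 and Gpr35 -0.12, and their other ends, without GFP-negative replicate 1, were -0.42, 0.26 and 0.60. The cause was not tested. With 2 arrays a group, signals near background limit what can be said of 26 to 44 of the 53 members.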
